A study of Mus musculus with 10 samples.

Results

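The 8 genes described here encode subunits of Polycomb repressive complex 2 (PRC2) and were chosen by name, out of 22923 gene symbols measured: the catalytic subunits Ezh1 and Ezh2, the core subunits Suz12, Eed and Rbbp7, and the accessory subunits Jarid2, Mtf2 and Phf19. RNA sequencing covered 5 cell populations of C57bl/6 mice aged 4 weeks: quiescent and cycling CD4+CD8+ thymocytes from the thymus, and from the bone marrow mature granulocytes and the small and large stages of pre-B cells. Each population was taken from mice labelled Dyrk1a -/- with Mx1-Cre (CKO) and from control mice (Dyrk1a flox/flox, without Mx1-Cre), with 2 mice pooled per genotype, which gave 10 libraries and 1 library per population and genotype. Mx1-Cre places the recombinase under an interferon-inducible promoter that acts widely in blood cells, so the deletion is not limited to lymphocytes, and the controls lack the Cre transgene. Large pre-B cells are the dividing stage and small pre-B cells the resting stage that follows. The comparisons ask how the PRC2 transcripts differ between quiescent and cycling cells, between CKO-labelled and control cells, and between lineages. Values are FPKM (mapped fragments per kilobase of a transcript, relative to all those of its library), a unit inferred from the processing tools and the values.

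PRC2 places methyl groups on lysine 27 of histone H3, a mark of repressed genes. EZH2 and EZH1 are alternative catalytic subunits that occupy the same place in the complex: EZH2 is the more active methyltransferase and is typical of dividing cells, and EZH1 is typical of resting and differentiated cells. SUZ12 is the scaffold, EED binds methylated lysine 27 and stimulates the enzyme, and RBBP7 binds histones and also belongs to other chromatin complexes. JARID2 joins the form called PRC2.2, whereas MTF2 and PHF19 are alternative Polycomb-like subunits of the form called PRC2.1, which bring the complex to its targets. EZH2 is known for its role in early B and T cell development.

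Markers of each labelled population were present. The 8 thymocyte markers were all at 1 FPKM or more in the 4 thymocyte libraries, as were the 8 pre-B markers in the 4 pre-B libraries and the 8 granulocyte markers in both granulocyte libraries. This level alone does not set populations apart. All 8 pre-B markers also reached it in CKO-labelled granulocytes, where they summed to 23.9 FPKM, against 1876 to 3782 FPKM in the pre-B libraries. Of the thymocyte markers, Rag1 and Cd1d1 were at 538 and 51.3 FPKM in control small pre-B cells. Dyrk1a, the targeted gene, was at 34.4 to 44.7 FPKM in the libraries labelled CKO and at 31.2 to 37.4 FPKM in control libraries, and in no population was the CKO-labelled library the lower one. The deleted part of the gene is not named in the labels, and transcript from outside it counts toward this value. The 8 lymphoid libraries had FPKM totals of 360394 to 431868, and the CKO-labelled and control granulocytes totals of 1074258 and 830006. The sequencing depth is unknown. Each of the 8 genes passed the filter of 1 FPKM in 2 libraries, and none was listed at 0.

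The 8 genes spanned different ranges over the 10 libraries. Ezh1 varied 10.3-fold between its lowest library, control cycling thymocytes, and its highest, control granulocytes. Ezh2 varied 9.12-fold, and control granulocytes were its lowest library. Phf19 varied 7.83-fold, Rbbp7 4.66-fold, Suz12 2.82-fold, Mtf2 2.70-fold and Jarid2 2.36-fold. Eed varied least of the 8, by 1.42-fold, from 34.8 FPKM in control small pre-B cells to 49.4 FPKM in CKO-labelled granulocytes. Per length of transcript, median levels over the 10 libraries were 110.4 FPKM for Ezh2 and 6.54 FPKM for Ezh1, so the catalytic genes lay far apart in most populations.

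**Figure D1:**
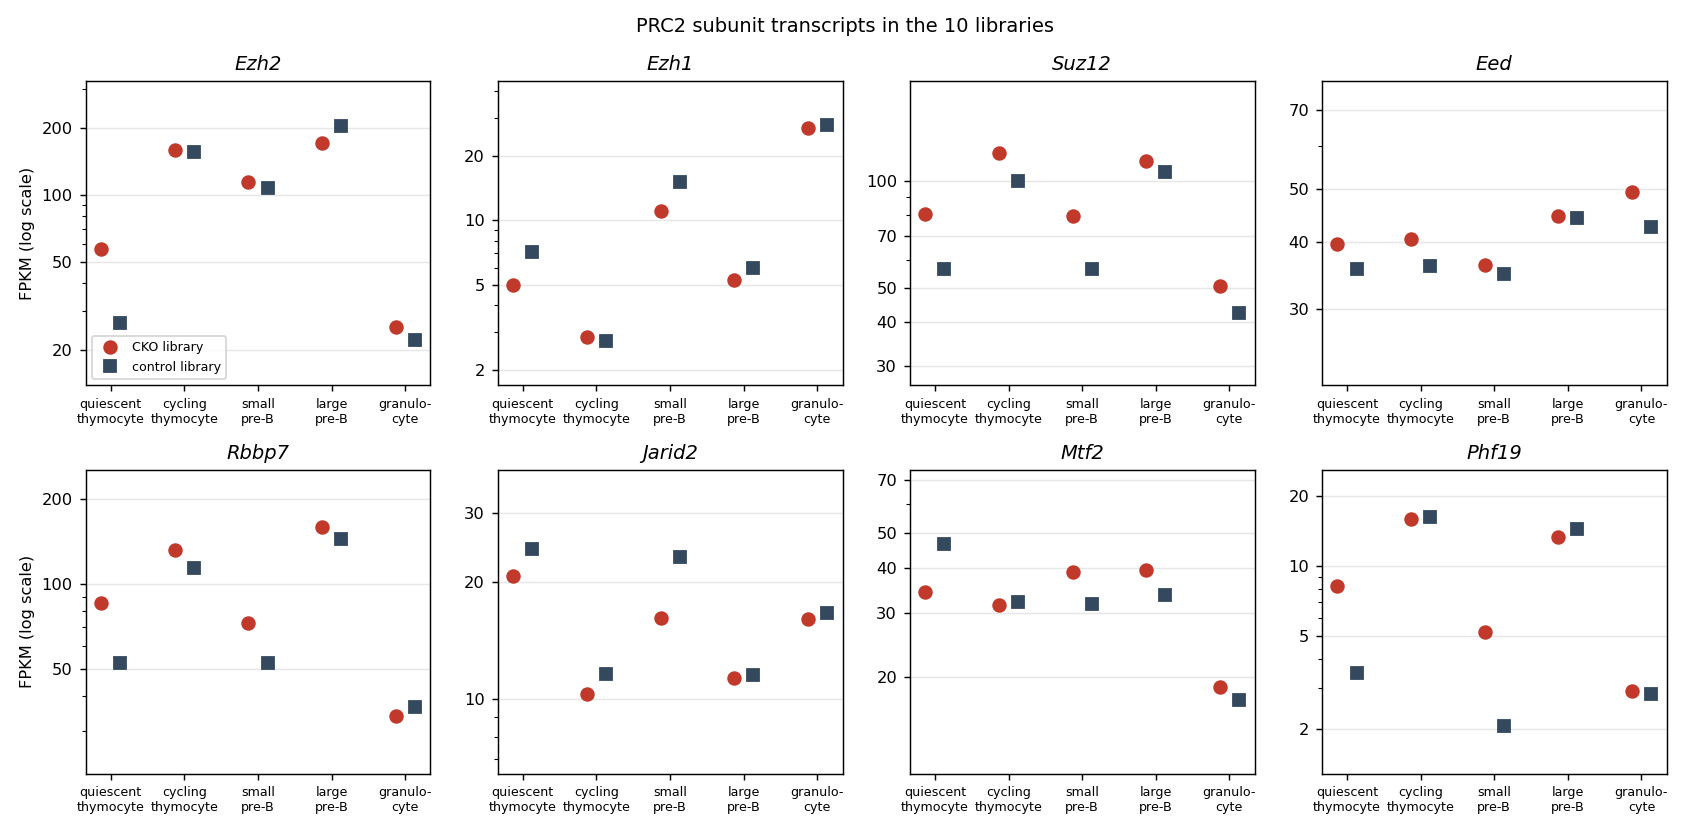
FPKM of each PRC2 gene (vertical axis, log scale, a range of its own in each panel) in the 5 populations (horizontal axis). Red circles are the CKO-labelled library and dark squares the control library of each population. Ezh2, Suz12, Rbbp7 and Phf19 lie higher in the cycling than in the quiescent population of both lineages, Ezh1 and Jarid2 lie lower, and Eed spans 34.8 to 49.4 FPKM.

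Promoter sequences are shown for the 3 PRC2 genes whose window held an E2F motif, all of them called lower in quiescent thymocytes, and for Ezh1, which was called higher and whose window held none of the motifs searched. In small compared with large pre-B cells Ezh2 was lower without passing the test. Rbbp7 was also called lower in quiescent cells, and its window held no E2F match. E2F proteins are transcription factors of the cell-division cycle, and DYRK1A acts on the DREAM complex, which represses genes of that cycle. Windows of 300 bases, 250 before and 50 after the RefSeq start site (GRCm38.p6), were matched for all 8 genes, with 10 windows in all since Mtf2 and Jarid2 have 2 each. The E2F motif was searched as TTTCCCGC, TTTGGCGC, TTTCGCGC or TTTGCCGC on both strands, and its match is in capitals. Each line runs 5′ to 3′ on the strand of the gene. Ezh2 lies at chr6:47594981-47595280 (minus strand), Suz12 at chr11:79992856-79993155 (plus strand), Phf19 at chr2:34913927-34914226 (minus strand) and Ezh1 at chr11:101226414-101226713 (minus strand).
Ezh2: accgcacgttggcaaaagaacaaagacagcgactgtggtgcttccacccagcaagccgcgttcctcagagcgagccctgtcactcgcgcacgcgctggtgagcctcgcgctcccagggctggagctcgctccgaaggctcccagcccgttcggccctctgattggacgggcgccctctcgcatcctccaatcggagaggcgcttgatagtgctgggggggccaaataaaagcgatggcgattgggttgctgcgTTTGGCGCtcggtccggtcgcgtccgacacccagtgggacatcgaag
Suz12: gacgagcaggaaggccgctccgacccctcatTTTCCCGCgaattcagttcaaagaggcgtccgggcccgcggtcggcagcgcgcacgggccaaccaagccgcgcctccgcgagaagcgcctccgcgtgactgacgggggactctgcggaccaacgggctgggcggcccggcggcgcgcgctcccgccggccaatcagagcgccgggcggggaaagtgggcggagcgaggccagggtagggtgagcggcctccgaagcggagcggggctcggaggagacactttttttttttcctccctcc
Phf19: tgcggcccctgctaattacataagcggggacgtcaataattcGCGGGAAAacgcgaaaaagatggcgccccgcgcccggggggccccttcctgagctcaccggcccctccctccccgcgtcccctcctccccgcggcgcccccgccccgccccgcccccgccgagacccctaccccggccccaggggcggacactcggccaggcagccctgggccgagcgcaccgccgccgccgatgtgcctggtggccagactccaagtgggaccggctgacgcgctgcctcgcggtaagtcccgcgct
Ezh1: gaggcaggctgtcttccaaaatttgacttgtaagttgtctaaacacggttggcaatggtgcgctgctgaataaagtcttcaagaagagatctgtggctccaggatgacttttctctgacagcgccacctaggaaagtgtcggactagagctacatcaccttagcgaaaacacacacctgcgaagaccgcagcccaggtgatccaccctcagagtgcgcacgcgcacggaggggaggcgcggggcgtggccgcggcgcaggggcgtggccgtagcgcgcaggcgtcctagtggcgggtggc
The match began 4 bases after the start site in Ezh2, 219 bases before it in Suz12 and 208 bases before it in Phf19, where it was read on the opposite strand. An E2F motif was in 3 of the 10 PRC2 windows, against 2.26% of all 32851 promoters in the table and 4.16% of the 10134 promoters of genes with at least 1 FPKM in 2 lymphoid libraries. No E2F match overlapped a match of the other motifs, which were also searched on both strands. The cell-cycle homology region motif TTTGAA was in 3 of the 10 PRC2 windows (Suz12, Eed and 1 of Mtf2), against 17.9% of all promoters and 11.9% of those of the expressed genes. The CCAAT box (letters CCAAT), which binds NF-Y, was in 7 of the 10 windows, against 37.4% and 38.6%. Both windows of Jarid2, which like Ezh1 was called higher in quiescent cells, held a CCAAT box and no E2F match. These matches describe letters in a window and do not show binding.

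Cell-cycle state was compared within each lymphoid lineage. In quiescent compared with cycling thymocytes, Ezh2, Phf19, Rbbp7 and Suz12 were lower and Ezh1 and Jarid2 were higher. In small compared with large pre-B cells, Rbbp7, Phf19, Suz12 and Eed were lower and Ezh1 and Jarid2 were higher, and Ezh2 was lower without passing the test. In all, 6 of 8 genes were called in each lineage at an adjusted p under 0.05 (limma on log2(FPKM + 1), 8 lymphoid libraries, a block for each lineage and genotype, adjusted over all 11126 genes). This count stands against a high background, since 44.9% of all genes were called in thymocytes and 47.4% in pre-B cells. In thymocytes 2 of the 8 genes were called higher, against 25.2% of all genes, and 4 lower, against 19.7%. In pre-B cells 2 were called higher, against 25.6%, and 4 lower, against 21.8%. The median log2 difference over the 8 genes was -0.36 in thymocytes, against 0.06 over all genes, and -0.51 in pre-B cells, against 0.04. The populations of a genotype came from 1 pool of mice, so the spread between animals is not part of these p-values. The 8 proliferation markers summed to 273 to 982 FPKM in the quiescent and small pre-B libraries, against 1929 to 2214 FPKM in the cycling and large pre-B libraries. In bulk samples fewer cells that express a gene and less of its RNA per cell cannot be told apart.

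Among the catalytic genes, Ezh2 (gene on chromosome 6) held 56.8 FPKM in CKO-labelled and 26.6 FPKM in control quiescent thymocytes, against 159 and 156 FPKM in CKO-labelled and control cycling thymocytes. Both quiescent libraries were lower than both cycling libraries, by 2.81-fold in the CKO-labelled pool and 5.86-fold in the control pool. Ezh2 fell by 1.99 in quiescent thymocytes (log2, SE 0.25, limma adjusted p = 0.00688). In the bone marrow Ezh2 held 114 FPKM in CKO-labelled and 107 FPKM in control small pre-B cells, against 171 and 203 FPKM in large pre-B cells. The groups did not overlap, with folds of 1.5 and 1.9 in the same direction, but the difference of -0.75 (SE 0.25) missed the threshold (limma adjusted p = 0.0555). It passed with a pseudocount of 5 (adjusted p = 0.0463) and without either thymocyte pair (adjusted p = 0.0101 and 0.0119).

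Ezh1 (chromosome 11) was the reverse. It held 4.98 FPKM in CKO-labelled and 7.12 FPKM in control quiescent thymocytes, against 2.86 and 2.72 FPKM in cycling thymocytes. Small pre-B cells held 11.0 FPKM (CKO-labelled) and 15.1 FPKM (control), against 5.28 and 5.96 FPKM in large pre-B cells. In neither lineage did the quiescent and cycling libraries overlap, and the quiescent library was 1.74 to 2.62-fold higher in the 4 pairs. Ezh1 rose by 0.88 on the log2 scale in quiescent thymocytes (SE 0.17, limma adjusted p = 0.0124) and by 1.07 in small pre-B cells (SE 0.17, adjusted p = 0.00733). With a pseudocount of 5 the thymocyte value was 0.498 and still called.

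The core subunits did not move as a block. Suz12 (chromosome 11) held 80.9 FPKM in CKO-labelled and 56.4 FPKM in control quiescent thymocytes, against 119.9 and 99.98 FPKM in cycling thymocytes. It held 79.8 and 56.3 FPKM in CKO-labelled and control small pre-B cells, against 114 and 106 FPKM in large pre-B cells. The scaffold transcript was lower in quiescent cells in all 4 pairs and fell by 0.69 in thymocytes (SE 0.14, limma adjusted p = 0.0135) and by 0.70 in pre-B cells (SE 0.14, adjusted p = 0.0122). Rbbp7 (chromosome X) held 85.1 FPKM in CKO-labelled and 52.3 FPKM in control quiescent thymocytes, against 131 and 114 FPKM in cycling thymocytes. It held 72.7 and 52.2 FPKM in CKO-labelled and control small pre-B cells, against 158 and 144 FPKM in large pre-B cells. No quiescent library reached a cycling one, and Rbbp7 fell by 0.86 in thymocytes (SE 0.16, limma adjusted p = 0.0111) and by 1.28 in pre-B cells (SE 0.16, adjusted p = 0.00464).

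Eed (chromosome 7), the reader of the mark, held 39.6 FPKM in CKO-labelled and 35.5 FPKM in control quiescent thymocytes, against 40.4 and 36.01 FPKM in cycling thymocytes. These groups overlapped, and the difference was -0.02 (SE 0.09, 95% interval -0.26 to 0.21, limma adjusted p = 0.872). In pre-B cells Eed held 36.1 FPKM (CKO-labelled) and 34.8 FPKM (control) at the small stage, against 44.6 and 44.2 FPKM at the large stage. There the groups were apart, and Eed fell by 0.32 (SE 0.09, limma adjusted p = 0.0405), a call that was lost without the CKO-labelled or the control thymocyte pair (adjusted p = 0.0627 and 0.0639).

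The accessory subunits split. Phf19 (chromosome 2) held 8.24 FPKM in CKO-labelled and 3.50 FPKM in control quiescent thymocytes, against 15.8 and 16.2 FPKM in cycling thymocytes. It held 5.20 and 2.06 FPKM in CKO-labelled and control small pre-B cells, against 13.3 and 14.4 FPKM in large pre-B cells. The quiescent libraries were all lower, and the pairs differed by 1.92-fold (CKO-labelled) and 4.62-fold (control) in thymocytes and by 2.56-fold and 6.997-fold in pre-B cells. Phf19 fell by 1.40 in thymocytes (SE 0.35, limma adjusted p = 0.0255) and by 1.77 in pre-B cells (SE 0.35, adjusted p = 0.0132). With a pseudocount of 5 the pre-B value was -1.15 and still called.

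Mtf2 (chromosome 5), the other Polycomb-like subunit, held 34.3 FPKM in CKO-labelled and 46.6 FPKM in control quiescent thymocytes, against 31.6 and 32.1 FPKM in cycling thymocytes. It held 39.1 and 31.7 FPKM in CKO-labelled and control small pre-B cells, against 39.4 and 33.7 FPKM in large pre-B cells. The thymocyte groups were apart and the pre-B groups overlapped, and neither difference passed the test, at 0.32 in thymocytes (SE 0.13, limma adjusted p = 0.0963) and -0.05 in pre-B cells (SE 0.13, adjusted p = 0.777). Per length of transcript, Mtf2 stood above Phf19 in each of the 10 libraries. Jarid2 (chromosome 13) held 20.7 FPKM in CKO-labelled and 24.3 FPKM in control quiescent thymocytes, against 10.3 and 11.6 FPKM in cycling thymocytes. It held 16.2 and 23.2 FPKM in CKO-labelled and control small pre-B cells, against 11.4 and 11.5 FPKM in large pre-B cells. Its quiescent libraries were all above the cycling ones, and Jarid2 rose by 0.97 in thymocytes (SE 0.15, limma adjusted p = 0.00808) and by 0.71 in pre-B cells (SE 0.15, adjusted p = 0.0142).

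**Figure D2:**
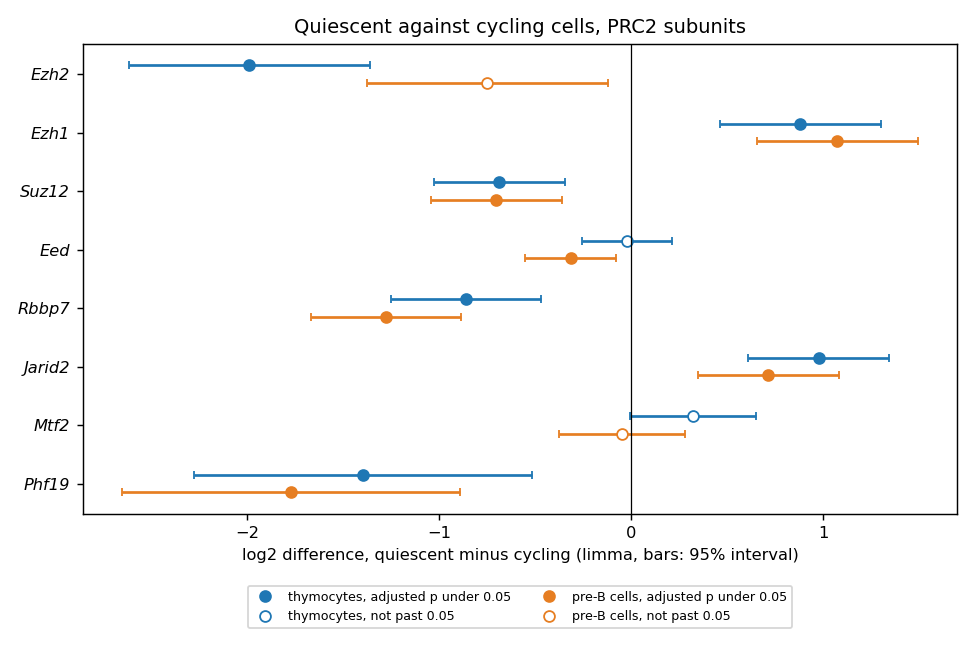
Difference between quiescent and cycling cells for each PRC2 gene (horizontal axis, log2, quiescent minus cycling, limma). Bars are 95% intervals and filled points passed an adjusted p of 0.05. Ezh2 in thymocytes (-1.99) and Phf19 in pre-B cells (-1.77) lie farthest to the left, and Ezh1 and Jarid2 lie to the right of 0 in both lineages.

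Leaving out a pair of libraries changed several of these calls. Without the control thymocyte pair none of the 8 genes was called in thymocytes, where 4 genes of the whole table were, and the difference of Phf19 was -0.87. Without the CKO-labelled thymocyte pair 6 of the 8 were called. Without the control pre-B pair none of the 8 was called in pre-B cells, and without the CKO-labelled pre-B pair 2 were (Rbbp7 and Jarid2). The sign of each called difference was unchanged in these fits. Markers of other cells also differed between the pre-B stages. The 8 natural killer and innate markers summed to 119 and 14.5 FPKM in CKO-labelled and control small pre-B cells, against 132 and 98.9 FPKM in large pre-B cells. The 7 monocyte and macrophage markers found summed to 140.1 and 14.4 FPKM in small pre-B cells, against 113 and 272 FPKM in large pre-B cells. The 6 erythroid markers found summed to 1.31 and 1.21 FPKM in CKO-labelled and control small pre-B cells, with none at 1 FPKM or more, against 21.6 and 40.6 FPKM in large pre-B cells, with all 6 at 1 FPKM or more. The 8 plasmacytoid dendritic markers summed to 952 and 1097 FPKM in CKO-labelled and control small pre-B cells, against 270.4 and 253 FPKM in large pre-B cells. In the control pair Siglech (2.25 and 7.99 FPKM) and Bst2 (21.1 and 32.9 FPKM) were lower at the small stage. Ccr9 and Klk1 were lower there as well, whereas Tcf4 (25.2 and 16.2 FPKM) and Irf8 (92.5 and 81.0 FPKM) were higher. In the CKO-labelled pair these markers were all higher at the small stage. Ly6d made up the largest part of the sum in each small pre-B library. The sum thus does not speak for each marker. The part of these lists in the PRC2 differences was not tested.

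The change with state was then compared between the lineages. None of the 8 genes was called for a different change in thymocytes than in pre-B cells, against 6.84% of all genes (761 genes). In the same limma fit 1 of the 8 had an unadjusted p under 0.05, against 28.2% of all genes. On simulated data this comparison recovered 0% of the genes changed 2-fold and 76.5% of those changed 4-fold. The lack of calls is thus no evidence that the change with state was alike in the lineages. Ezh2 came nearest, with a difference of -1.24 on the log2 scale, thymocyte change minus pre-B change (SE 0.35, limma adjusted p = 0.0971), and it passed without the CKO-labelled thymocyte pair (adjusted p = 0.0411).

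The balance between the catalytic transcripts shifted with state in each pool. The ratio of Ezh2 to Ezh1 FPKM was 11.4 in CKO-labelled and 3.74 in control quiescent thymocytes, against 55.8 and 57.4 in cycling thymocytes. It was 10.3 in CKO-labelled and 7.10 in control small pre-B cells, against 32.3 and 34.1 in large pre-B cells. Granulocytes had ratios of 0.947 (CKO-labelled) and 0.799 (control), the only libraries of the 10 in which Ezh1 exceeded Ezh2. The ratios of the quiescent lymphoid populations did not overlap those of the cycling populations.

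Expressed as a share, Ezh1 made up 8.06% and 21.1% of the summed Ezh1 and Ezh2 FPKM in CKO-labelled and control quiescent thymocytes, against 1.76% and 1.71% in cycling thymocytes. The share was 8.83% and 12.4% in CKO-labelled and control small pre-B cells, against 3.0% and 2.85% in large pre-B cells. In granulocytes it was 51.3% (CKO-labelled) and 55.6% (control). The sum itself was 61.8 FPKM in CKO-labelled and 33.7 FPKM in control quiescent thymocytes, against 162 and 159 FPKM in cycling thymocytes, so the thymocyte sum followed Ezh2.

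On the log2 scale, the balance differed between quiescent and cycling cells by -2.11 in CKO-labelled and -3.63 in control thymocytes, and by -1.52 in CKO-labelled and -2.13 in control pre-B cells. The mean of these 4 pairs was -2.35 (SD 0.90). In both lineages the shift was smaller in the CKO-labelled pair. No test was made, since the balance combines 2 of the chosen genes. In thymocytes both terms contributed, with a lower Ezh2 and a higher Ezh1, and in pre-B cells the log2 change of Ezh1 (1.07) was larger than that of Ezh2 (-0.75).

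**Figure D3:**
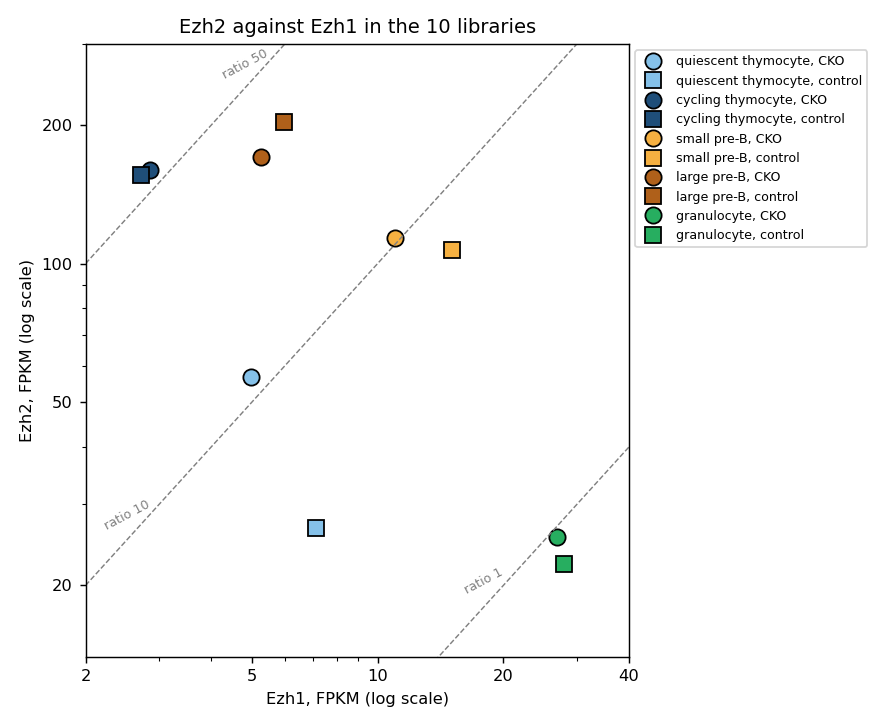
Ezh2 (vertical axis, FPKM, log scale) against Ezh1 (horizontal axis, FPKM, log scale) in the 10 libraries. Circles are CKO-labelled and squares control libraries, and dashed lines mark ratios of 1, 10 and 50. Cycling populations lie at the upper left, granulocytes at the lower right near a ratio of 1, and control quiescent thymocytes have the lowest ratio of the lymphoid libraries, 3.74.

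Between CKO-labelled and control libraries, PRC2 genes past 2-fold were found in the quiescent populations: Ezh2 and Phf19 were higher in CKO-labelled quiescent thymocytes, and Phf19 in CKO-labelled small pre-B cells. With 1 library per genotype there is no test within a population, and a gene was taken as past 2-fold at a log2 ratio of at least 1, on log2(FPKM + 1), where the higher library reached 5 FPKM. In quiescent thymocytes 2 of the 8 PRC2 genes were past 2-fold and both were higher, Ezh2 by 2.13-fold (56.8 FPKM in the CKO-labelled library, 26.6 FPKM in control) and Phf19 by 2.35-fold (8.24 and 3.50 FPKM). Of the 7852 genes that reached 5 FPKM in the higher library, 5.26% were past 2-fold there, and 3.66% were higher. In small pre-B cells 1 of the 8 was past 2-fold, Phf19, which was 2.52-fold higher (5.20 FPKM in the CKO-labelled library, 2.06 FPKM in control). Of the 8207 genes that reached 5 FPKM there, 6.3% were past 2-fold, with 4.52% higher. These 3 log2 ratios lay just past the limit of 1, at 1.066, 1.038 and 1.018, and with a pseudocount of 5 none of the 8 genes was past 2-fold in either population.

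None of the 8 was past 2-fold in cycling thymocytes (background 0.954%), large pre-B cells (1.84%) or granulocytes (2.33%). Ratios on the FPKM scale of the other PRC2 genes in the quiescent populations lay within 2-fold. Rbbp7 was 1.63-fold and 1.39-fold higher in CKO-labelled quiescent thymocytes and small pre-B cells, and Suz12 1.44-fold and 1.42-fold higher. Ezh1 was 0.70-fold and 0.73-fold of control, and Jarid2 0.851-fold and 0.699-fold.

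Proliferation transcripts differed between the same libraries. The summed FPKM of 8 proliferation markers was 849 in CKO-labelled and 273 in control quiescent thymocytes, and 982 in CKO-labelled and 473 in control small pre-B cells. In cycling thymocytes it was 2214 and 1933, in large pre-B cells 2135 and 1929, and in granulocytes 594 and 547. Mki67, a marker of dividing cells, was at 48.3 FPKM in CKO-labelled and 1.70 FPKM in control quiescent thymocytes, and at 75.5 and 35.0 FPKM in small pre-B cells. All 8 markers were at 1 FPKM or more in the CKO-labelled quiescent thymocytes and 5 of 8 in the control. The small pre-B libraries also differed in markers of other cells. The 8 natural killer and innate markers summed to 119 FPKM in the CKO-labelled library (8 at 1 FPKM or more) and 14.5 FPKM in control (6), and the 7 monocyte and macrophage markers found to 140.1 FPKM (4) and 14.4 FPKM (3), with no marker of either list at 0. The 8 plasmacytoid dendritic markers summed to less in the CKO-labelled small pre-B library, 952 FPKM against 1097 FPKM in control. Within that list only Ly6d (468 and 939 FPKM) was lower in the CKO-labelled library, and it set the lower sum. The other markers of the list were all higher there, among them Siglech (41.5 and 2.25 FPKM), Bst2 (134 and 21.1 FPKM) and Irf8 (212 and 92.5 FPKM). The part of these markers in the PRC2 differences was not tested.

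**Figure D4:**
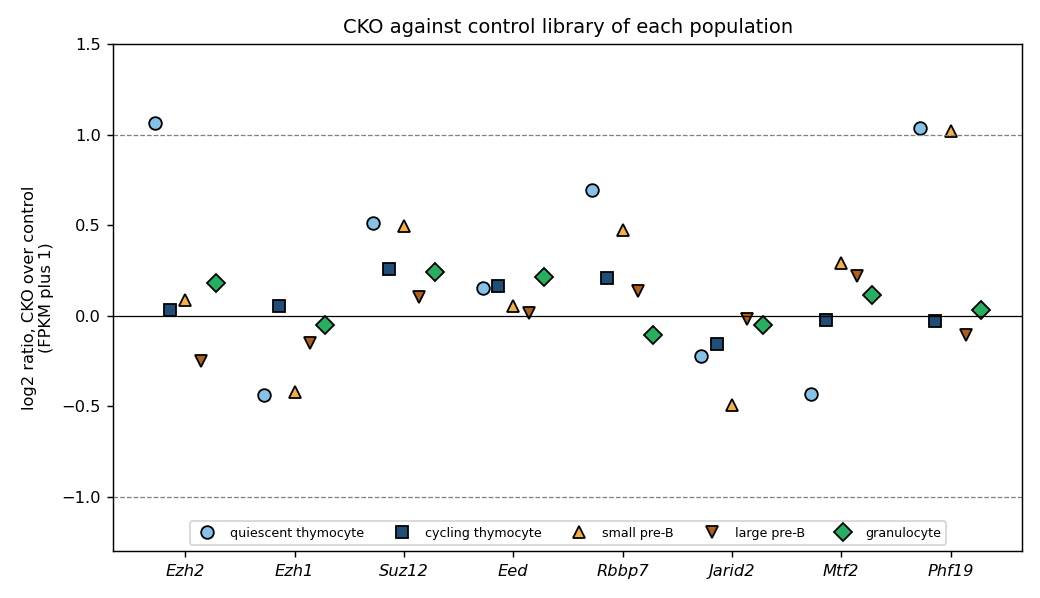
Log2 ratio of the CKO-labelled over the control library for each PRC2 gene (vertical axis, on FPKM plus 1) in each of the 5 populations (marker shape and colour), with dashed lines at 2-fold. Ezh2 in quiescent thymocytes (1.07) and Phf19 in quiescent thymocytes (1.038) and small pre-B cells (1.018) lie past the upper line.

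Over the 4 lymphoid populations together none of the 8 genes was called between CKO-labelled and control libraries (limma, population as block). The background was 0.036%, 4 of 11126 genes. All populations of a genotype came from 1 pool of 2 mice, so the p-values of this fit leave out the spread between animals. Pool and genotype cannot be told apart here. At an unadjusted p under 0.05 there were 2 of the 8, against 16.8% of all genes. Suz12 was higher in the CKO-labelled library in 4 of 4 populations (0.34, SE 0.09, limma adjusted p = 0.236), and Rbbp7 likewise in 4 of 4 (0.38, SE 0.11, adjusted p = 0.25). Phf19 was higher by 0.48 (SE 0.24, adjusted p = 0.345) and Ezh2 by 0.23 (SE 0.21, adjusted p = 0.578), whereas Ezh1 differed by -0.24 (SE 0.12, adjusted p = 0.335). The value for Ezh2 was -0.045 without the quiescent thymocyte pair. A different change with state in CKO-labelled than in control cells was called for none of the 8 genes and for 0.0449% of all genes (5 genes). At an unadjusted p under 0.05 there were 4 of the 8, against 12.2% of all genes. Phf19 had an interaction of 1.1 (SE 0.15, limma adjusted p = 0.148) and Ezh2 of 0.69 (SE 0.20, adjusted p = 0.289). This fit has 1 residual degree of freedom, so the lack of calls is no evidence that the change with state was alike in the pools.

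Granulocytes held the most Ezh1 and the least Ezh2 of the 5 populations. Ezh1 held 26.9 FPKM in CKO-labelled and 27.9 FPKM in control granulocytes, above each lymphoid library, of which the highest was 15.1 FPKM. Ezh2 held 25.4 and 22.3 FPKM in CKO-labelled and control granulocytes, below each lymphoid library, of which the lowest was 26.6 FPKM in control quiescent thymocytes. The granulocyte libraries thus did not overlap any other for either gene. In CKO-labelled and control granulocytes Mki67 was at 95.1 and 76.0 FPKM, against 75.5 and 35.0 FPKM in small pre-B cells. Ccna2 was at 86.3 and 86.4 FPKM, against 76.6 and 34.6 FPKM in small pre-B cells. Pcna, at 125 and 117 FPKM, lay below each lymphoid library. Compared with large pre-B cells 7 of the 8 genes were called, 2 higher and 5 lower, where 77.7% of all genes were called, 41.2% higher and 36.6% lower (limma, 10 libraries, population and genotype). Compared with small pre-B cells 6 of 8 were called, 2 higher and 4 lower, where 71.8% of all genes were called, 38.4% higher and 33.4% lower.

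Against large pre-B cells, Ezh1 rose by 2.1 (SE 0.16, limma adjusted p = 1.92e-05) and Ezh2 fell by 2.92 (SE 0.28, adjusted p = 6.57e-05) on the log2 scale. Against small pre-B cells, Ezh1 rose by 1.03 (SE 0.16, limma adjusted p = 0.000819) and Ezh2 fell by 2.16 (SE 0.28, adjusted p = 0.000351). Among core subunits, Suz12 held 50.4 and 42.5 FPKM in CKO-labelled and control granulocytes, and Rbbp7 held 34.0 and 36.7 FPKM. Both genes lay below all 8 lymphoid libraries. Suz12 fell by 1.23 against large pre-B cells (SE 0.12, limma adjusted p = 7.76e-05) and by 0.52 against small pre-B cells (SE 0.12, adjusted p = 0.00649), and Rbbp7 fell by 2.06 (SE 0.18, adjusted p = 4.53e-05) and by 0.79 (SE 0.18, adjusted p = 0.0067). Eed, at 49.4 and 42.5 FPKM in CKO-labelled and control granulocytes, overlapped large pre-B cells and was 0.36 higher than in small pre-B cells (SE 0.09, limma adjusted p = 0.00873).

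Of the accessory genes, Mtf2 held 18.8 and 17.3 FPKM in CKO-labelled and control granulocytes, below all 8 lymphoid libraries. It fell by 0.98 against large pre-B cells (SE 0.17, limma adjusted p = 0.00162) and by 0.93 against small pre-B cells (SE 0.17, adjusted p = 0.00236). Phf19 held 2.92 and 2.83 FPKM in CKO-labelled and control granulocytes, within the range of small pre-B cells, and fell by 1.94 against large pre-B cells (SE 0.33, limma adjusted p = 0.00133), and by 1.26 with a pseudocount of 5. Jarid2 held 16.05 and 16.69 FPKM, above the large pre-B libraries, and rose by 0.48 against them (SE 0.14, limma adjusted p = 0.014), a call that was lost without the CKO-labelled granulocyte library (adjusted p = 0.0902) or the control large pre-B library (adjusted p = 0.11). Without the CKO-labelled granulocyte library the calls of Rbbp7 and Eed against small pre-B cells were lost as well. The natural killer and innate markers (4 of 8 at 1 FPKM or more) summed to 1637 and 2108 FPKM in CKO-labelled and control granulocytes, against 14.5 to 132 FPKM in the pre-B libraries. Of these sums Fcer1g, which granulocytes also express, made up 1606 and 2055 FPKM. The other markers of the list did not move alike. Gzma was lower in granulocytes (1.37 and 1.80 FPKM) than in each pre-B library (2.03 to 41.6 FPKM). Nkg7 was at 20.7 and 47.6 FPKM in CKO-labelled and control granulocytes, against 1.62 to 27.5 FPKM in the pre-B libraries. The monocyte and macrophage markers (7 of 7 found at 1 FPKM or more) summed to 2402 and 2972 FPKM in CKO-labelled and control granulocytes, against 14.4 to 272 FPKM in the pre-B libraries. No marker of either list was at 0 in granulocytes, and the part of these markers in the PRC2 differences was not tested.

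**Figure D5:**
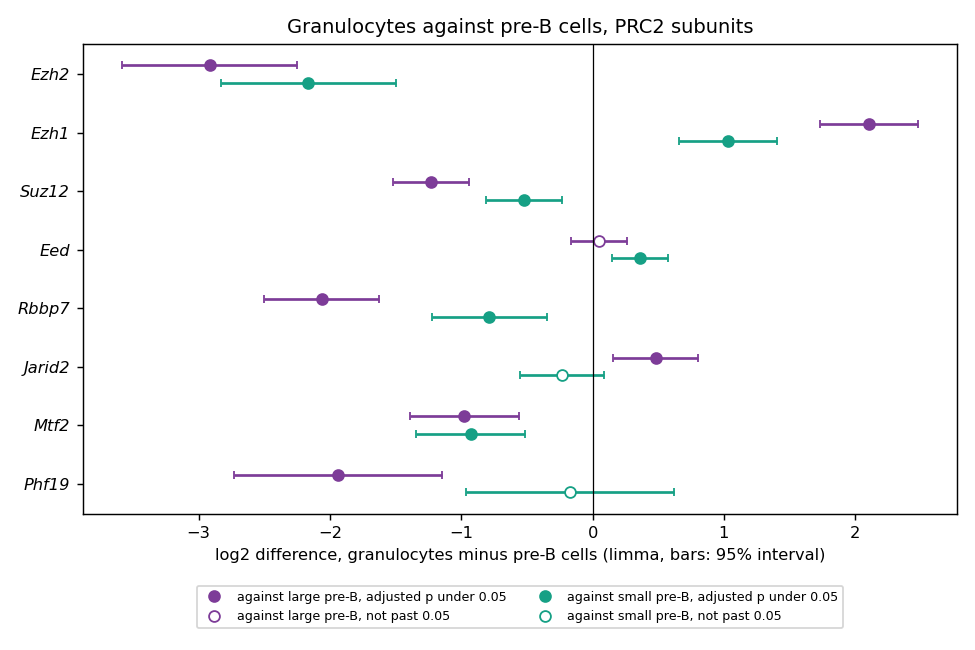
Difference between granulocytes and pre-B cells for each PRC2 gene (horizontal axis, log2, granulocytes minus pre-B cells, limma). Bars are 95% intervals and filled points passed an adjusted p of 0.05. Ezh1 lies to the right of 0 in both comparisons (2.1 and 1.03) and Ezh2 to the left (-2.92 and -2.16).

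The lineages were also compared within a state, in the fit of 10 libraries used for granulocytes. Its p-values leave out the spread between animals here too. Between cycling thymocytes and large pre-B cells 1 of the 8 genes was called, Ezh1, where 51.3% of all genes were called. Ezh1 was lower in cycling thymocytes, with a difference of -0.80 (SE 0.16, limma adjusted p = 0.0054) that was -0.45 with a pseudocount of 5, and Ezh2 differed by -0.24 (SE 0.28, 95% interval -0.91 to 0.43, adjusted p = 0.507). Between quiescent thymocytes and small pre-B cells 2 of the 8 were called, against 61.7% of all genes: Ezh1 at -0.996 (SE 0.16, limma adjusted p = 0.00153) and Ezh2 at -1.48 (SE 0.28, adjusted p = 0.00352), both lower in quiescent thymocytes. Without the control quiescent thymocyte library the difference of Ezh2 was -0.95 (adjusted p = 0.00429). The share of PRC2 genes called was thus below the background in both matched states.

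Placed in order, Ezh2 was highest in large pre-B cells, then cycling thymocytes, small pre-B cells, quiescent thymocytes and granulocytes, and no neighbours in that order overlapped. Ezh1 was highest in granulocytes and then in small pre-B cells, and lowest in cycling thymocytes. The ranges of quiescent thymocytes and large pre-B cells, which lay between, overlapped for Ezh1. Suz12 was highest in cycling thymocytes and large pre-B cells, whose ranges overlapped, followed by quiescent thymocytes and small pre-B cells, which overlapped too, and lowest in granulocytes. Jarid2 was highest in quiescent thymocytes and small pre-B cells, and Mtf2 had overlapping ranges in neighbouring lymphoid populations throughout its order.

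Genes whose pattern over the 10 libraries was most like that of Ezh2 were Itpa (Pearson r = 0.99), Cstf2 (0.98), Cbwd1 (0.98), Snrpb2 (0.98) and Trmt6 (0.98), out of 8947 genes with at least 5 FPKM in 2 libraries. Those most like Ezh1 were Baat1 (0.997), Akap10 (0.995), Eif4g3 (0.99), Uckl1 (0.99) and Arrdc1 (0.99). Over the 8 lymphoid libraries alone, 0 of the 5 genes remained among the 5 most like Ezh2 and 1 of 5 (Baat1) among those most like Ezh1. The 5 named for Ezh2 then ranked 6 to 71 of 8942 genes, with r of at least 0.968, and those named for Ezh1 ranked 3 to 25, with r of at least 0.984. Ezh1 and Ezh2 themselves had r = -0.68 over the 10 libraries and -0.25 over the 8 lymphoid libraries. These are descriptions over libraries that share 5 populations and 2 pools of mice.

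Other Polycomb genes were counted from lists of the remaining PRC2 genes, the PRC1 complexes and the PR-DUB deubiquitinase. Some PRC1 complexes bind the PRC2 mark. Of the 36 genes listed, 31 passed the filter. In quiescent thymocytes 12 of the 31 were called higher and 6 lower than in cycling thymocytes, and in small pre-B cells 9 were higher and 9 lower than in large pre-B cells. Over all genes these shares were 25.2% higher and 19.7% lower in thymocytes, and 25.6% higher and 21.8% lower in pre-B cells. The median log2 difference of the 31 was 0.23 in thymocytes, against 0.06 over all genes, and 0.03 in pre-B cells, against 0.04. For the difference of the change with state between lineages 1 was called, Kdm2b, a PRC1 subunit that binds CpG islands (1.05, SE 0.19, limma adjusted p = 0.0453). That call was lost without the control thymocyte pair or either pre-B pair, and with a pseudocount of 0.1, rescaling or no filter.

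Phf1, the third Polycomb-like subunit, went opposite to Phf19. It held 31.8 and 34.6 FPKM in CKO-labelled and control quiescent thymocytes, against 12.8 and 10.4 FPKM in cycling thymocytes, and 15.7 and 22.8 FPKM in CKO-labelled and control small pre-B cells, against 8.47 and 8.80 FPKM in large pre-B cells. The groups did not overlap, and Phf1 rose by 1.44 in thymocytes (SE 0.17, limma adjusted p = 0.0066) and by 1.05 in pre-B cells (SE 0.17, adjusted p = 0.0076). Granulocytes held 116.8 and 101.2 FPKM in CKO-labelled and control libraries, and the difference from large pre-B cells was 3.51 (SE 0.19, limma adjusted p = 4.24e-06). Cbx7, a PRC1 subunit that reads the PRC2 mark, rose by 0.96 in quiescent thymocytes (SE 0.23, limma adjusted p = 0.022) and by 1.57 in small pre-B cells (SE 0.23, adjusted p = 0.00639). Cbx2, another reader, fell by 1.12 in quiescent thymocytes (SE 0.30, limma adjusted p = 0.0292), and its difference was -0.57 without the control thymocyte pair. In pre-B cells the stages overlapped for Cbx2, at 18.5 and 12.5 FPKM in CKO-labelled and control large pre-B cells, against 16.2 and 6.54 FPKM in small pre-B cells. The CKO-labelled library held more Cbx2 than control in quiescent thymocytes (20.1 and 7.38 FPKM) and in small pre-B cells (16.2 and 6.54 FPKM), past 2-fold in both. Of the genes that reached 5 FPKM, 3.66% and 4.52% were higher past 2-fold in these populations.

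The enzymes that remove the PRC2 mark were both higher in quiescent cells of both lineages. Kdm6a rose by 0.63 in quiescent thymocytes (SE 0.10, limma adjusted p = 0.00863) and by 0.59 in small pre-B cells (SE 0.10, adjusted p = 0.00894). Kdm6b rose by 0.79 (SE 0.11, limma adjusted p = 0.00784) and by 1.32 (SE 0.11, adjusted p = 0.00264), and was higher in granulocytes than in large pre-B cells by 4.33 (SE 0.25, adjusted p = 5.91e-06). Against small pre-B cells it was higher by 3.01 (SE 0.25, limma adjusted p = 3.76e-05). Cbx2 fell by 3.61 in granulocytes (SE 0.36, limma adjusted p = 7.91e-05) against large pre-B cells, and by 1.93 with a pseudocount of 5. Whsc1, the older symbol of Nsd2, encodes an enzyme that methylates lysine 36 of histone H3, a mark that opposes PRC2. It fell by 1.73 in quiescent thymocytes (SE 0.24, limma adjusted p = 0.00764) and by 1.1 in small pre-B cells (SE 0.24, adjusted p = 0.0179). Whsc1 does not stand for its list, since the other called genes for lysine 36 methyltransferases were higher. Of 4 that passed the filter, 2 were called higher and 1 lower in thymocytes, against 25.2% and 19.7% of all genes. In pre-B cells 3 were called higher and 1 lower, against 25.6% and 21.8%. Whsc1 was past 2-fold between CKO-labelled and control quiescent thymocytes (32.5 and 14.5 FPKM). The state calls of Kdm6a, Kdm6b, Whsc1, Phf1, Cbx2 and Cbx7 in thymocytes were lost without the control thymocyte pair. Those of Kdm6a, Kdm6b, Whsc1, Phf1 and Cbx7 in pre-B cells were lost without the control pre-B pair. Without the CKO-labelled pre-B pair Kdm6a (adjusted p = 0.0657) and Whsc1 (adjusted p = 0.0785) were lost in pre-B cells. The thymocyte call of Cbx2 was lost without either pre-B pair (adjusted p = 0.0632 and 0.0633).

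Some of these genes share exonic sequence with neighbours on the opposite strand, and no source used here gives the strand setting of the counting. On mm10 (GENCODE vM21), Mtf2 shares 395 exonic bases with Tmed5, Eed 261 with E230029C05Rik, Suz12 178 with Gm26563, Rbbp7 174 with Txlng and Ezh2 174 with Gm26625. Rbbp7 also has a copy, Gm6382, with 97.1% identity over 942 bases, and Mtf2 one, Gm49301, with 91.8% identity over 329 bases. Reads of these stretches could be counted for either gene, so the values of Mtf2, Rbbp7, Eed, Suz12 and Ezh2 carry this uncertainty. No overlap of exons or near copy was found for Ezh1, Jarid2 and Phf19.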

How the data were processed

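Total RNA from dye-labelled, surface-stained cells was extracted with RNeasy kits and, per the labels' protocols, sequenced with Illumina's standard libraries. The labels do not name the gates. TopHat2 2.0.8b, Cuffdiff 2.1.1 and build mm10 appear, with no roles, in the submitters' processing notes. The deposited values are read as FPKM, inferred from these tools and from the values, and annotation and strand setting are not given in the sources used here. FPKM are relative within a library.

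Each file held 23179 rows. After removal of 201 exact repeats, and of all but the highest row for 47 symbols, 22923 symbols were left. Tests used limma 3.58.1 (trend, R 4.3.3) on log2(FPKM + 1), which understates changes of low genes, for genes with at least 1 FPKM in 2 fitted libraries, with Benjamini-Hochberg adjustment over all genes, two-sided, at 0.05. The state fit (8 lymphoid libraries, a block for each lineage and genotype) had 2 residual degrees of freedom, the genotype fit (population block) 3, the interaction 1, and the population fit (10 libraries) 4. Each fit was tested on simulated data.

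All 8 members were named. Named besides them were the 5 genes with the highest Pearson r to Ezh2 and to Ezh1, and among other Polycomb genes up to 4 called ones per comparison with the largest change, with values given for some, plus both lysine 27 demethylases, of which Kdm6a was added after its values were seen. Values of Cbx2 by genotype were also chosen after they were seen. The members and lists were chosen with earlier results of these data known. Alternatives were other blocks, other filters, pseudocounts of 0.1 and 5, leaving out libraries, and scaling each library by its median ratio. The likeness ranking skipped predicted genes, receptor segments, Xist, Y-linked and small RNA genes. Promoters are from RefSeq (GRCm38.p6), positions from GENCODE vM21, and copies were sought with blastn 2.17.0. Tables were handled with numpy 2.4.6 and pandas 2.3.3 (Python 3.11.15) and plots drawn with matplotlib 3.10.9.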

Additional observations from a re-analysis of the deposited data

How the results depend on the processing

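The labels carry no replicate numbers, and pairs here are the libraries of 1 pool or of 1 population, which the blocks of the fits pair. Of 136 alternative values for counts of PRC2 genes and for the balance, 127 stayed within the limits set for a change, and 9 moved. For single genes, 754 of 832 kept direction and call, 69 lost the call, 4 gained it, and 3 changed sign, and 2 lists of similar genes moved. With pseudocounts of 0.1 and 5 the mean balance shift was -2.51 and -1.93.

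With pseudocount 5, the PRC2 genes past 2-fold numbered 0 in both quiescent thymocytes and small pre-B cells. Rescaling by median ratios gave 2 called genes (Eed and Ezh1) between cycling thymocytes and large pre-B cells, where 1 was called without rescaling. Over all genes 6194 of 11717 were called there after rescaling, against 6004 of 11715 without it. With control libraries alone and 1 state effect over both lineages, 2 of 8 were called (Phf19 and Rbbp7). That fit called 489 of 10586 genes in all, so its lower count came with a lower background. Leaving out pairs or single libraries gave 0 to 6 called genes for quiescent thymocytes, 0 to 6 for small pre-B cells and 0 to 1 for the difference between lineages. It gave 0 to 0 between genotypes, 6 to 7 and 4 to 7 for granulocytes against large and small pre-B cells, 1 to 1 for the cycling lineages and 2 to 3 for the quiescent ones. For quiescent against cycling thymocytes the 0 came from leaving out the control pair, which also lowered the count over all genes to 4, whereas leaving out the CKO-labelled pair kept 3214 genes and 6 of the 8. The cause was not tested. For small against large pre-B cells, the control pair left 0 and 3 genes in all.

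Differences that changed sign were Ezh2 between genotypes without the quiescent thymocyte pair (-0.045, with 0.39 at the other end of the range, without the large pre-B pair), Ezh2 in cycling thymocytes against large pre-B cells without the control large pre-B library (0.058, and -0.54 without the CKO-labelled one), and Mtf2, at 0.22 where the control libraries alone gave 1 state effect over both lineages, set against its pre-B value. In the control pre-B libraries themselves Mtf2 was 31.7 FPKM at the small and 33.7 FPKM at the large stage. The main values of these 3 were themselves not called. Over all genes, the difference of the state effect between lineages was called for 761 genes, for 361 with pseudocount 0.1, 533 after rescaling and 0 without a filter. Between genotypes 4 genes were called, 10 with pseudocount 0.1, 6 after rescaling, 2 with pseudocount 5 and 0 without a filter. Without a filter the interaction had 0 calls instead of 5, and Phf19 was lost in both lineages (adjusted p = 0.0902 and 0.0551). The 5 genes named as most like Ezh2 and Ezh1 shared 0 and 1 with the 5 highest over lymphoid libraries. A block for lineage alone lost Suz12 in both lineages (adjusted p = 0.0585 and 0.0541) and Eed in pre-B cells (0.0612). Rescaling moved the median log2 difference of all genes between granulocytes and large pre-B cells to -0.069, against 0.035 as deposited. The named Kdm2b call was lost with pseudocount 0.1 (adjusted p = 0.0576), after rescaling (0.0531) and without a filter (0.105). Without a filter Cbx2 and Cbx7 in thymocytes (0.0957 and 0.075) and Whsc1 in pre-B cells (0.0641) were lost too, and with a block for lineage alone Cbx2 and Kdm6b in thymocytes (0.147 and 0.0862) and Whsc1 in pre-B cells (0.0824). Leaving out a pair left the interaction no residual degrees of freedom, so it could not be fitted. Depth is unknown, so low values such as Phf19 in granulocytes carry an unstated counting error.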
